A study of Mus musculus with 12 samples.

Results

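Genes that carry glucose into the cell, break it down to pyruvate and lactate and divert it into glycogen were followed in tumours of MC38, a line of mouse colon carcinoma cells. The list held 34 genes, chosen by name from the known pathway. A probe set annotated to the gene alone was found for 31 of them, with the brightest taken for each gene. Of the 34, 29 were tested among 11070 genes in all. Gpi1, Eno1 and G6pdx had no probe set to them alone in the annotation used here, Gapdh had only control probe sets, and Slc16a3 lay just under the floor of 5.55, the lowest mean log2 value over the 12 arrays at which a gene was tested.

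Every tumour came from cells with a doxycycline-inducible hairpin against Tdo2, which encodes a tryptophan-degrading enzyme, injected into the cecum of C57BL/6 mice. The 4 groups of 3 tumours were APC-KO tumours with doxycycline in the drinking water (Dox), APC-KO tumours without it (no Dox), APC-WT tumours with Dox and APC-WT tumours without it. APC is the scaffold protein that keeps beta-catenin low, and its gene is knocked out in the APC-KO cells, per the labels. No tumour without the hairpin was analysed here, so effects of Dox and of the hairpin cannot be told apart. The labels and notes used here give no age of the animals and no clones behind the lines. They also do not say that each tumour is from its own animal, and if tumours shared one, the p-values below would not cover the spread between animals.

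Glycolysis turns glucose into pyruvate in the cytosol through a chain of enzymes, most of them present as several isoenzymes encoded by separate genes. Many tumours take up much glucose and release lactate. Under low oxygen, hypoxia-inducible factor (HIF) raises the transcription of glucose transporters, of many glycolytic enzymes and of pyruvate dehydrogenase kinases, which hold pyruvate back from the mitochondrion. In whole tumours, fewer cells of a type and less RNA per cell cannot be told apart.

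Tdo2 itself had a mean log2 value of 3.85, under the floor, and differed with Dox by 0.27 ± 0.10 in APC-KO tumours (limma without a filter, adjusted p = 0.378), so these arrays do not show whether the hairpin lowered it. With Dox, the brightest probe set of Apc was lower in APC-KO tumours, at -0.24 ± 0.07 relative to APC-WT ones (limma, adjusted p = 0.0219) and it was at -0.10 ± 0.07 without Dox (adjusted p = 0.271). Which part of Apc was deleted is not stated in the labels, and host cells carry the gene. Array medians lay between 5.54 and 5.58. Of the epithelial markers, Krt18, Krt19, Krt20 and Vil1 lay under the floor while Krt8, Cdh1 and Epcam were above it, and the macrophage and fibroblast lists were above it in full (9 of 9 and 7 of 7). Differences are given on the log2 scale with limma's standard error, over 3 tumours per group. A gene passed where its Benjamini-Hochberg adjusted p over the 11070 genes was under 0.05.

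The first question was how the pathway differed between APC-KO tumours with and without Dox. Of the 29 tested genes 9 fell with Dox and none rose, while 0.506% of all tested genes fell and 0.0361% rose. The 9 were Slc2a1, Pfkl, Pfkfb3, Aldoa, Tpi1, Pgam1, Pkm, Ldha and Pgm1. The median difference of the 29 was -0.27, against 0.00 over all tested genes. Of the 29, 23 lay below 0, as did 49.2% of all tested genes. For 21 of the 29 all 3 Dox values lay under all 3 no-Dox values, as was the case for 9.67% of all tested genes. Eno3 alone had all 3 Dox values above the others, which held for 8.08% of all tested genes.

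**Figure D1:**
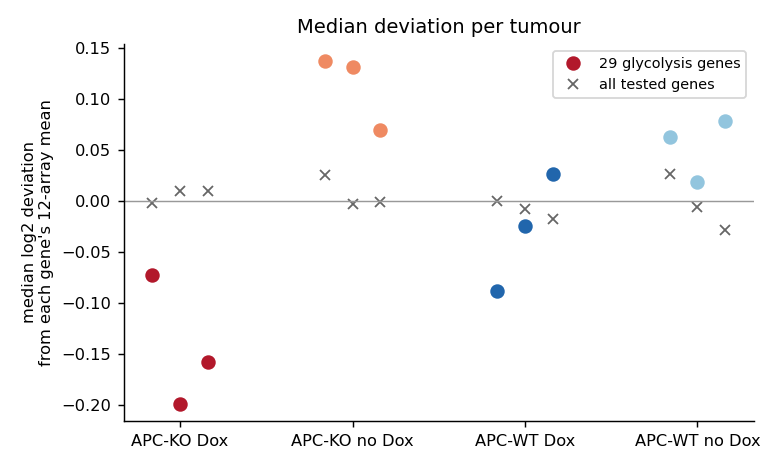
Median log2 deviation of the 29 tested glycolysis genes from their own means over 12 arrays, 1 point per tumour, by group; crosses give the same over all 11070 tested genes. The 3 APC-KO Dox tumours lie at -0.07, -0.20 and -0.16 and the 3 APC-KO no-Dox tumours at 0.14, 0.13 and 0.07, with the crosses near 0 in every group.

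Per tumour, the median deviation of the 29 genes from their own means over the 12 arrays was -0.07, -0.20 and -0.16 in APC-KO Dox tumours, against 0.14, 0.13 and 0.07 in APC-KO no-Dox tumours. It was -0.09, -0.03 and 0.03 in APC-WT Dox tumours, against 0.06, 0.02 and 0.08 in APC-WT no-Dox tumours. The groups were thus apart in APC-KO, where replicate 1 with Dox was the least low, and less so in APC-WT, where replicate 3 with Dox lay within the range of the no-Dox tumours. The plot of median deviations per tumour shows these values beside those of all tested genes.

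At the entry of the pathway, the widest difference was in Slc2a1, which encodes GLUT1, the main glucose transporter of growing cells. Slc2a1 had log2 values of 9.64, 9.30 and 9.50 in APC-KO Dox tumours, against 10.89, 10.68 and 10.54 in APC-KO no-Dox tumours. All 3 Dox values lay under all 3 no-Dox values, and the difference was -1.22 ± 0.14 (limma, adjusted p = 0.00631), a 2.34-fold lower level. It passed in each of the 12 fits with 1 array left out, with an adjusted p of up to 0.0498. Its other probe sets differed by -1.26 and -1.10, and all 3 passed over the 22519 probe sets tested. Slc2a3, the high-affinity transporter GLUT3, was at -0.23 ± 0.09 (adjusted p = 0.27).

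Hexokinases trap glucose in the cell by phosphorylating it. Hk2, the inducible isoenzyme, had 9.12, 8.91 and 9.00 in APC-KO Dox tumours, against 9.43, 9.41 and 9.47 in APC-KO no-Dox tumours. The groups did not overlap, yet the difference of -0.43 ± 0.10 did not pass (limma, adjusted p = 0.0803). Hk1, the housekeeping isoenzyme, was at -0.17 ± 0.07 (adjusted p = 0.278).

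Phosphofructokinase catalyses the committed step, with subunits named for liver (Pfkl), muscle (Pfkm) and platelets (Pfkp). Pfkl had 8.38, 7.94 and 8.20 in APC-KO Dox tumours, against 8.88, 8.69 and 8.86 in APC-KO no-Dox tumours. It fell by 0.64 ± 0.11 (limma, adjusted p = 0.0142), a 1.56-fold lower level with no overlap. Of its 3 probe sets 2 passed over all probe sets tested, and the dimmest was at -0.285 (adjusted p = 0.215). Pfkp, at -0.38 ± 0.09, did not pass (adjusted p = 0.0864), and Pfkm was at 0.09 ± 0.08 (adjusted p = 0.649). The bifunctional enzymes of the PFKFB family set fructose 2,6-bisphosphate, the activator of phosphofructokinase, and Pfkfb3 is the one with the highest kinase activity. Its values were 6.70, 6.55 and 6.69 in APC-KO Dox tumours, against 7.18, 7.32 and 7.26 in APC-KO no-Dox tumours. The APC-KO tumours with Dox lay close together and apart from those without it, and Pfkfb3 fell by 0.60 ± 0.11 (limma, adjusted p = 0.0257). Pfkfb2 and Pfkfb4 were at 0.14 ± 0.13 and 0.07 ± 0.08 without passing (adjusted p = 0.712 and 0.754).

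Aldolase splits fructose 1,6-bisphosphate. Aldoa, the ubiquitous form, had 11.16, 11.09 and 11.08 in APC-KO Dox tumours, against 11.90, 11.63 and 11.68 in APC-KO no-Dox tumours. The groups were well apart and Aldoa fell by 0.63 ± 0.10 (limma, adjusted p = 0.00995), with replicate 1 the highest of the no-Dox tumours. Its 5 probe sets all lay below 0, between -0.63 and -0.21, and 4 of them passed over all probe sets tested. Aldoc, the brain form, was at -0.48 ± 0.15 with no overlap and did not pass (adjusted p = 0.187). Tpi1, the triose phosphate isomerase, had 11.73, 11.49 and 11.52 in APC-KO Dox tumours, against 12.03, 12.03 and 11.96 in APC-KO no-Dox tumours. It fell by 0.43 ± 0.08 (limma, adjusted p = 0.0412), and all of its 3 probe sets passed.

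Gapdh, which makes the first high-energy phosphate, had no probe set of its own apart from controls, which were not tested. The signal of its 5′ control probe set was 13.57, 13.53 and 13.52 in APC-KO Dox tumours, against 13.65, 13.62 and 13.62 in APC-KO no-Dox tumours. The groups did not overlap, and their means differed by -0.09, against -0.08 and -0.05 for the middle and 3′ control probe sets, at signals close to the highest value of the whole table, 14.2. The 3 probe sets that Gapdh shares with other genes were at -0.07, -0.01 and 0.13, and none passed over all probe sets (limma, adjusted p = 0.415, 0.984 and 0.653). Pgk1, phosphoglycerate kinase, had 12.17, 11.67 and 11.94 in APC-KO Dox tumours, against 12.44, 12.29 and 12.37 in APC-KO no-Dox tumours. At -0.44 ± 0.10 it did not pass (limma, adjusted p = 0.0864), although 1 of its 3 probe sets, which was not the brightest, did so over all probe sets (-0.45, adjusted p = 0.0215). Bpgm, which turns the substrate of Pgk1 into 2,3-bisphosphoglycerate instead, was at -0.16 ± 0.12 (adjusted p = 0.635).

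Further down the chain, Pgam1, phosphoglycerate mutase, had 11.44, 11.33 and 11.39 in APC-KO Dox tumours, against 11.65, 11.71 and 11.63 in APC-KO no-Dox tumours. The difference of -0.28 ± 0.05 was small next to that of Slc2a1 and passed (limma, adjusted p = 0.0286). The enolases Eno2 and Eno3, named for neurons and muscle, were at -0.20 ± 0.11 and 0.16 ± 0.09 without passing (adjusted p = 0.445 and 0.495). Pkm, pyruvate kinase, had 12.13, 11.97 and 11.89 in APC-KO Dox tumours, against 12.38, 12.30 and 12.29 in APC-KO no-Dox tumours. It fell by 0.33 ± 0.06 (limma, adjusted p = 0.0412); its single probe set does not tell the splice forms M1 and M2 apart here.

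Pyruvate is reduced to lactate by lactate dehydrogenase, whose A subunit favours this direction. Ldha had 11.72, 11.49 and 11.64 in APC-KO Dox tumours, against 12.16, 11.97 and 11.95 in APC-KO no-Dox tumours. It fell by 0.41 ± 0.07 (limma, adjusted p = 0.0141), with no overlap. Ldhb, the B subunit of oxidative tissues, was at 0.10 ± 0.11 with overlapping groups (adjusted p = 0.739). The lactate exporter gene Slc16a3, which encodes MCT4, had 5.33, 4.88 and 5.27 in APC-KO Dox tumours, against 6.47, 5.91 and 6.10 in APC-KO no-Dox tumours. Its mean over the 12 arrays, 5.52, was under the floor, so Slc16a3 was not among the tested genes, and only the APC-KO no-Dox group lay above the floor on all its arrays. Without a filter on level it passed, with a difference of -1.0 ± 0.15 (limma, adjusted p = 0.00753). Slc16a1, which encodes the lactate carrier MCT1, was at -0.12 ± 0.05 (adjusted p = 0.374).

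The kinase genes that switch off pyruvate dehydrogenase did not pass. Pdk1 had 8.96, 8.87 and 9.22 in APC-KO Dox tumours, against 9.61, 9.31 and 9.59 in APC-KO no-Dox tumours. The groups did not overlap, and the difference was -0.48 ± 0.11 (limma, adjusted p = 0.0664). Another of its probe sets passed over all probe sets (-0.57, adjusted p = 0.0312). Pdk3 was at -0.19 ± 0.08 (adjusted p = 0.286). On the way to glycogen, Pgm1, the phosphoglucomutase that links glucose 6-phosphate to glucose 1-phosphate, had 8.31, 8.10 and 8.06 in APC-KO Dox tumours, against 8.56, 8.53 and 8.47 in APC-KO no-Dox tumours. It fell by 0.36 ± 0.07 (limma, adjusted p = 0.0457). The related Pgm2 was at 0.06 ± 0.06, Ugp2, which makes UDP-glucose, at -0.01 ± 0.06, the glycogen synthase Gys1 at -0.27 ± 0.07 and the branching enzyme Gbe1 at -0.23 ± 0.09, and none of these 4 passed.

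**Figure D2:**
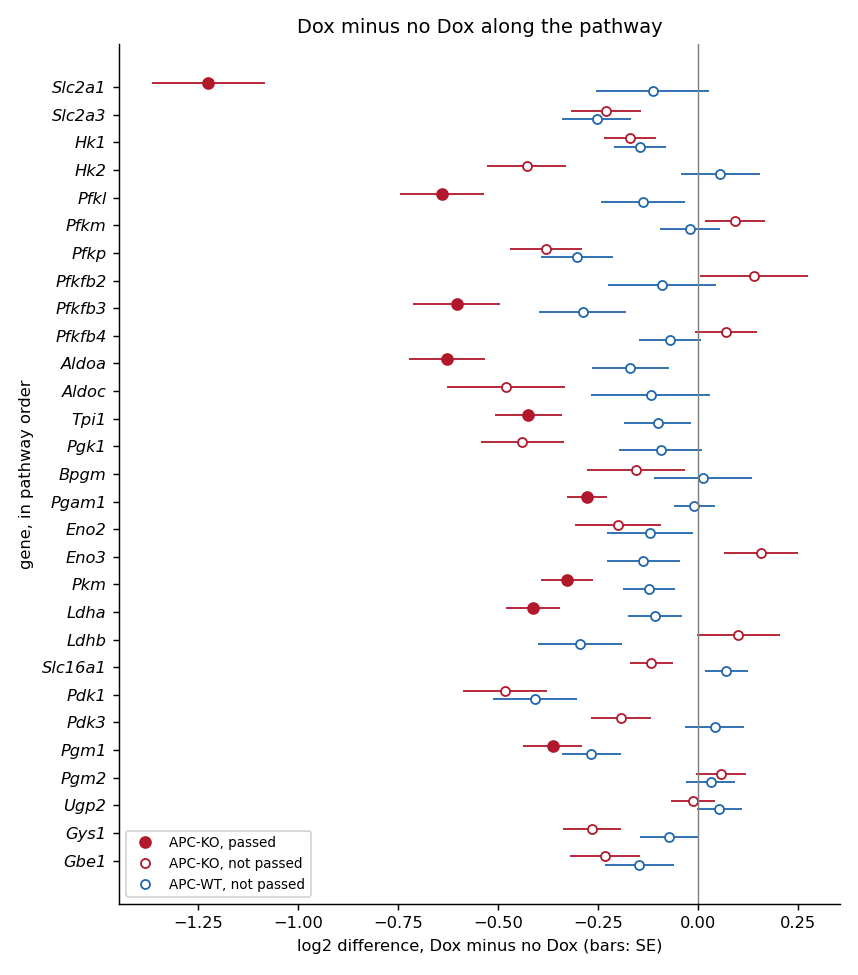
Log2 difference, Dox minus no Dox, for each of the 29 tested genes in pathway order, with the standard error as a bar; red for APC-KO and blue for APC-WT tumours, filled where the gene passed. In APC-KO tumours 9 genes passed, all below 0, with Slc2a1 at -1.22 as the lowest; in APC-WT tumours none passed.

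**Figure D3:**
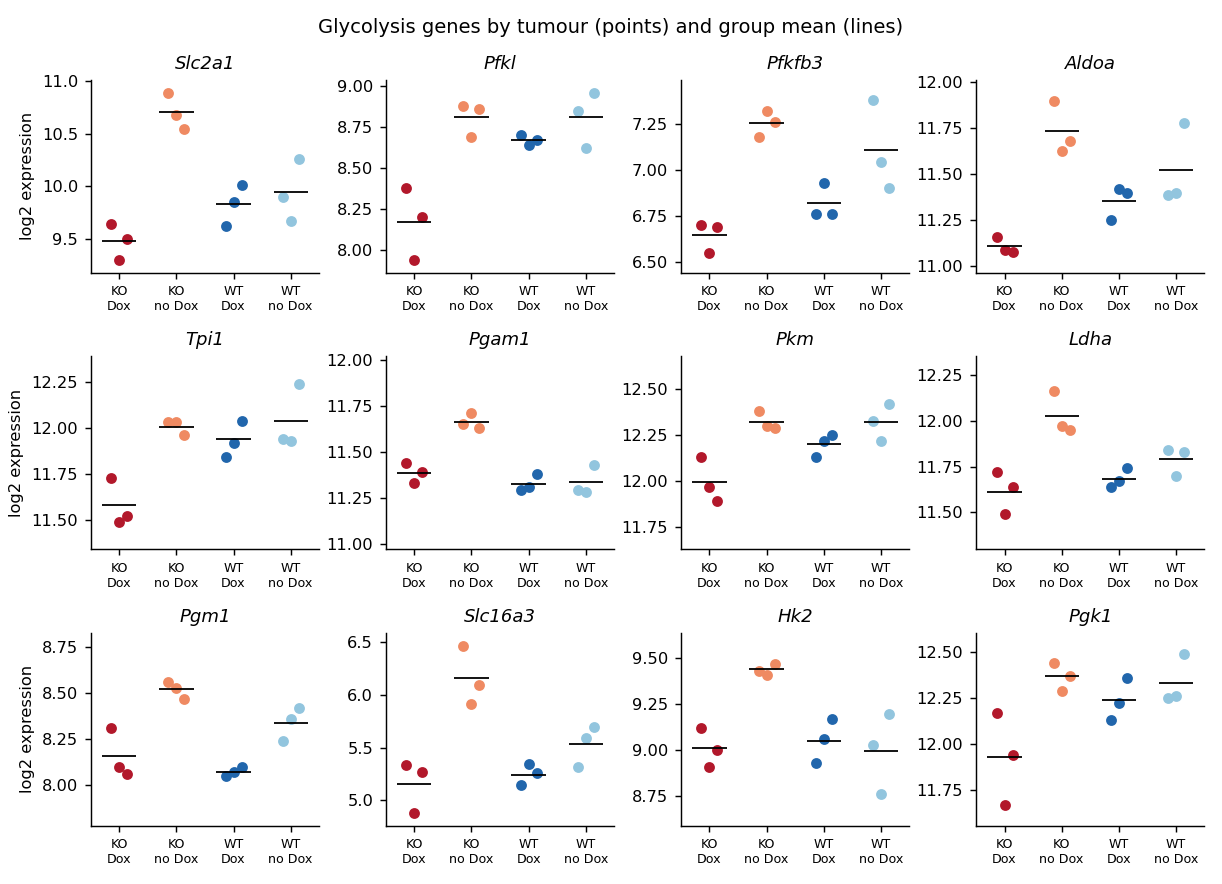
Log2 expression of the 9 genes that fell with Dox in APC-KO tumours and of Slc16a3, Hk2 and Pgk1, with 1 point per tumour and the group mean as a line; each panel has its own axis, which spans at least 1 log2 unit. In every panel the 3 APC-KO Dox tumours lie under the 3 APC-KO no-Dox tumours.

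The count of 9 rested on single tumours. With 1 array left out it was 1, namely Slc2a1, when replicate 2 or 3 of the APC-KO Dox tumours or replicate 1 of the APC-KO no-Dox tumours was dropped. It was 5 when replicate 3 of the APC-KO no-Dox tumours or replicate 2 of the APC-WT Dox tumours was dropped. It was 4 with eBayes without a trend and 5 with only the groups compared. Other readings moved with this comparison, and their part in the result was not tested. The middle control probe set of 18S ribosomal RNA was at 9.34, 9.37 and 9.61 in APC-KO Dox tumours, against 9.80, 10.16 and 9.89 in APC-KO no-Dox tumours. It was lower with Dox with no overlap, as were the 5′ and 3′ ones. Marker sums here are the log2 of the summed unlogged values of all markers of a list on the array. Those under the floor are included, and the brightest markers weigh most. Marker calls stand beside 0.506% of all tested genes that fell. Neutrophil markers had a sum of 9.80 to 9.99 in APC-KO Dox tumours and 10.36 to 11.42 in APC-KO no-Dox tumours. Of the 4 tested of 6 on the array, S100a8 and S100a9 fell (limma, adjusted p = 0.0113 and 0.0133, with all 3 Dox arrays under the floor), and Cxcr2 and Ngp lay under the floor on average. Macrophage markers summed to 14.86 to 14.88 in APC-KO Dox tumours and 14.93 to 14.98 in APC-KO no-Dox tumours, and 1 of 9, Cd14, fell (-0.48 ± 0.09, limma, adjusted p = 0.0375). Epithelial markers summed to 8.79 to 9.58 in APC-KO Dox tumours and 9.71 to 10.40 in APC-KO no-Dox tumours without overlap, although none of the 3 tested passed (Krt8 at -1.34 ± 0.41, adjusted p = 0.188). Smooth muscle markers summed to 8.40 to 8.67 in APC-KO Dox tumours and 8.73 to 8.80 in APC-KO no-Dox tumours, and none of the 3 tested passed.

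Targets of HIF outside glycolysis were looked up in the same comparison. Of 16 tested, 6 fell and none rose, beside 0.506% and 0.0361% of all tested genes. The median was -0.54, and 15 lay below 0, beside 49.2% of all tested genes. Ankrd37 was at -1.63 ± 0.23 and the mitophagy receptor gene Bnip3 at -1.53 ± 0.21 (limma, adjusted p = 0.00861 each). Egln3, a prolyl hydroxylase that marks HIF for destruction, was at -0.97 ± 0.13 (adjusted p = 0.00781), and Ero1a, an oxidase of the endoplasmic reticulum, at -0.97 ± 0.18 (adjusted p = 0.0325). In APC-WT tumours none of the 16 passed with Dox, beside 0.0271% of all tested genes. The median was -0.21, and 15 lay below 0, beside 53.0% of all tested genes. Between genotypes without Dox, 8 were higher in APC-KO tumours and 1 lower, among them P4ha2, a collagen prolyl hydroxylase, at 0.82 ± 0.22, Egln3 at 0.73 ± 0.13, Bnip3 at 0.70 ± 0.21 and the angiogenic factor Vegfa at 0.64 ± 0.17 (limma, adjusted p = 0.0154, 0.0014, 0.028 and 0.0151). These shares stand beside 13.8% and 11.1% of all tested genes. With Dox, 1 was higher, Plod2 at 0.29 ± 0.08, and 3 were lower, beside 11.9% and 7.99% of all tested genes. The lower ones were Ddit4 at -0.80 ± 0.22, Ero1a at -0.57 ± 0.18 and Ndrg1 at -0.49 ± 0.14.

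Around glycolysis, 6 further lists held 50 tested genes, of which 1 fell and 1 rose with Dox in APC-KO tumours (2.0% each), where 0.506% and 0.0361% of all tested genes did. In APC-KO tumours none of 8 other isoenzymes and partners of the pathway, of 8 pentose phosphate genes, of 9 genes of pyruvate dehydrogenase and the pyruvate carriers or of 9 regulators passed. Hk3, the hexokinase of myeloid cells, had the smallest p of the other isoenzymes (-0.39 ± 0.09, limma, adjusted p = 0.0881). Of 12 glycogen genes 1 fell, Ppp1r3b, which targets a phosphatase to glycogen (-0.81 ± 0.16, adjusted p = 0.0414, with 1 Dox array under the floor). Of 4 gluconeogenesis genes 1 rose, Pck2, the mitochondrial phosphoenolpyruvate carboxykinase (0.49 ± 0.10, adjusted p = 0.0412). In APC-WT tumours none of these 6 lists had a call with Dox. The lowest p among them was that of Txnip, an inhibitor of glucose uptake, at -0.67 ± 0.11 (adjusted p = 0.0532).

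Because genes of one pathway were lower together, the letters upstream of their starts were searched on both strands for ACGTG, the core of the HIF binding element, and for its variant GCGTG. In the 250 bases before the annotated starts (RefSeq, GRCm38.p6), ACGTG was found for 7 of the 9 genes that fell and for 8 of the 19 other tested members that had a promoter entry, which left out Slc2a3. The share was 25.3% of the 8957 tested genes with an entry, and 61.8% for either motif, against 8 of 9 and 15 of 19. Genes with several starts had more than 1 window, and some of these windows overlap. Per window, ACGTG was found in 64.3% for genes that fell, 35.7% for the other members and 21.6% for all tested genes. For either motif the shares were 78.6%, 71.4% and 55.6%. The palindrome CACGTG holds ACGTG on both strands and is also the E-box of MYC-type factors. These are matches of letters, not binding sites, and say nothing of what bound there. Of the 5 windows below, 4 are from genes that fell and show the range found among them, and the Pgm2 window shows a match upstream of a gene that did not pass. Each reads toward the start, and capitals mark the searched motifs or their reverse complements.
Slc2a1: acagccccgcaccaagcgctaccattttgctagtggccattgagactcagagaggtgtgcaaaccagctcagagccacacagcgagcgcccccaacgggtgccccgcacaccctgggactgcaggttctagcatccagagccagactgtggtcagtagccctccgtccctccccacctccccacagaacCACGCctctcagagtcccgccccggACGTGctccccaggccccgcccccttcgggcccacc
Pfkl: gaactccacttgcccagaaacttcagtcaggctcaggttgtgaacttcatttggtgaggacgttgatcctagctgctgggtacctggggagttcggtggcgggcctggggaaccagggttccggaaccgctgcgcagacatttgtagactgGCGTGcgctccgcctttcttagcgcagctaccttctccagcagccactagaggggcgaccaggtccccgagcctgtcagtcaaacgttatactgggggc
Ldha: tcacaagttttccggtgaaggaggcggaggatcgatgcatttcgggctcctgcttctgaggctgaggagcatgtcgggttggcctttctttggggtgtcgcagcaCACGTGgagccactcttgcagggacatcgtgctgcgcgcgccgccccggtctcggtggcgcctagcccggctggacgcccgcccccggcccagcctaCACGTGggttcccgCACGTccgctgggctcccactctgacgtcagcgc
Tpi1: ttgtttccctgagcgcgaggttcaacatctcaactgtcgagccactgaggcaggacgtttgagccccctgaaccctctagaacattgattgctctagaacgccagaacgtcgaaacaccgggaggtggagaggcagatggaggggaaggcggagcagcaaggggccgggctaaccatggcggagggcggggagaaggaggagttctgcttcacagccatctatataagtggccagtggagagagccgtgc
Pgm2: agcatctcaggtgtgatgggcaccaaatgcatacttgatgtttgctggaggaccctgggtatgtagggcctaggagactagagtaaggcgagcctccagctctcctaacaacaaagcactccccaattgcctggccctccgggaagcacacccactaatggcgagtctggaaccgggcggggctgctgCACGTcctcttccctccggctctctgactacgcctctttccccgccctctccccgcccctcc

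The Slc2a1 window lies at chr4:119108495-119108744 on the plus strand and holds 1 ACGTG, whose first base is 36 bases before the start, and 1 GCGTG at 61 bases. The Pfkl window, at chr10:78009808-78010057 on the minus strand, holds 1 GCGTG and no ACGTG. In the window of the first Ldha start, at chr7:46845554-46845803 on the plus strand, the 5 matches to ACGTG include both strands of 2 CACGTG palindromes. No match lies in the Tpi1 window, at chr6:124814159-124814408 on the minus strand, while Pgm2, at chr5:64092689-64092938 on the plus strand, has 1. Tpi1 fell without a match and Pgm2 did not pass with one.

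In APC-WT tumours none of the 29 genes passed with Dox, where 0.0271% of all tested genes did. Unadjusted p-values were under 0.05 for 7 of them, all lower with Dox, against 9.03% of all tested genes in that direction. The median was -0.11, against -0.01 over all tested genes. As in APC-KO tumours, 23 of the 29 lay below 0, beside 53.0% of all tested genes. The groups did not overlap for 6 genes, all lower, as for 10.3% of all tested genes in that direction.

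The smallest p in APC-WT tumours was that of Pdk1, the pyruvate dehydrogenase kinase. Its values were 8.90, 9.15 and 9.22 in APC-WT Dox tumours, against 9.49, 9.44 and 9.58 in APC-WT no-Dox tumours. The groups did not overlap, and the difference of -0.41 ± 0.11 did not pass (limma, adjusted p = 0.123). Pgm1 had 8.05, 8.07 and 8.10 in APC-WT Dox tumours, against 8.24, 8.36 and 8.42 in APC-WT no-Dox tumours (-0.27 ± 0.07, adjusted p = 0.139). Pfkp had 8.83, 8.78 and 8.83 in APC-WT Dox tumours, against 9.15, 9.12 and 9.08 in APC-WT no-Dox tumours (-0.30 ± 0.09, adjusted p = 0.155). In both genes the tumours with Dox lay below those without it, and with array quality weights Pdk1, Pgm1 and Pfkp passed. For Pfkp these are values of the brightest probe set. Of its other probe sets, the one above the floor was at 0.02 with overlapping groups (limma over all probe sets, adjusted p = 0.959). Slc2a3, Hk1 and Ldhb were the other genes without overlap, at -0.25 ± 0.09, -0.15 ± 0.07 and -0.30 ± 0.11.

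Slc2a1 in APC-WT tumours had 9.62, 9.85 and 10.01 with Dox, against 9.90, 9.67 and 10.26 without. These groups overlapped, and the difference was -0.11 ± 0.14 (limma, adjusted p = 0.732). Slc16a3 had 5.14, 5.34 and 5.26 in APC-WT Dox tumours, against 5.32, 5.59 and 5.70 in APC-WT no-Dox tumours, all but 2 of them under the floor. APC-WT no-Dox replicate 3 was the highest of its group for Slc2a1, Aldoa, Tpi1 and Pgk1, with 10.26, 11.78, 12.24 and 12.49. The Gapdh control signal, 3′ minus 5′, was -0.19, -0.16 and -0.16 in APC-WT Dox tumours, against -0.09, -0.12 and -0.12 in APC-WT no-Dox tumours, and was lower on every Dox array. Marker sums were lower with Dox without overlap for epithelium (9.80 to 10.01 in APC-WT Dox tumours and 10.41 to 11.77 in APC-WT no-Dox tumours), for T cells (9.37 to 9.76 with Dox and 9.78 to 10.20 without) and for fibroblasts (14.82 to 14.87 with Dox and 14.88 to 15 without), although no marker of these lists passed. The part of these readings in the differences was not tested.

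The next test asked whether the Dox differences were unequal between genotypes, as the interaction, the Dox difference in APC-KO minus that in APC-WT. None of the 29 genes passed in limma, and none of all tested genes did (0.0%). Unadjusted p-values were under 0.05 for 13 of the 29, 11 of them on the side of a lower value in APC-KO, against 5.61% of all tested genes on that side, and 2 on the other side, against 6.24%. The median was -0.17, against 0.01 over all tested genes. Slc2a1 had the largest interaction, -1.11 ± 0.20, with an adjusted p of 0.129, a value that no tested gene went below. Those of Pfkl, Hk2 and Aldoa followed at -0.50 ± 0.15, -0.48 ± 0.14 and -0.46 ± 0.14 (adjusted p = 0.254, 0.252 and 0.254), and Ldhb lay on the other side at 0.40 ± 0.15 (adjusted p = 0.338). Without APC-WT no-Dox replicate 3, Slc2a1, Hk2, Aldoa and Pgam1 passed, and with array quality weights Slc2a1 alone did.

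Across all 12 arrays, glycolysis genes stood apart in the APC-KO groups in 2 ways. For 7 of the 29, namely Slc2a1, Hk2, Pgam1, Ldha, Slc16a1, Pgm1 and Gys1, the 3 APC-KO no-Dox values lay above those of all 9 other tumours, as for 2.78% of all tested genes. For 7 others, Hk1, Pfkl, Pfkp, Pfkfb3, Aldoa, Aldoc and Tpi1, the 3 APC-KO Dox values lay below those of all 9 other tumours, as for 2.38% of all tested genes. For Slc2a3, Hk1 and Pfkp the APC-WT no-Dox tumours lay above all others (3.46% of all tested genes). Both patterns of Pfkp are those of its brightest probe set. In its other probe set above the floor, the APC-KO no-Dox values of 7.66, 7.27 and 7.33 lay above all others. Eno3 lay below all others in APC-KO no-Dox tumours (1.73% of all tested genes) and Ldhb in APC-WT Dox tumours (2.26%). The comparisons share groups of tumours, so a group that stands apart enters more than one of them.

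APC-KO and APC-WT tumours were next compared without Dox. Of the 29 genes 6 were higher in APC-KO tumours and 4 lower, where 13.8% and 11.1% of all tested genes were, so the share called, 34.5%, stood beside 24.9% of all tested genes. The higher genes were Slc2a1, Hk2, Pgam1, Ldha, Slc16a1 and Gys1, and the lower ones Hk1, Pfkm, Pfkp and Eno3. The median was 0.04, against 0.01 over all tested genes.

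Slc2a1 was higher in APC-KO tumours by 0.76 ± 0.14 (limma, adjusted p = 0.00174), from the values given above. The hexokinases went opposite ways. Hk2, with 9.43, 9.41 and 9.47 in APC-KO tumours, against 9.03, 8.76 and 9.20 in APC-WT tumours, was higher by 0.44 ± 0.10 (adjusted p = 0.00561). Hk1, with 8.95, 9.11 and 9.10 in APC-KO tumours, against 9.42, 9.24 and 9.34 in APC-WT tumours, was lower at -0.28 ± 0.07 (adjusted p = 0.00708). Neither gene's groups overlapped. Pgam1 was higher by 0.33 ± 0.05 (limma, adjusted p = 0.000502) and Ldha by 0.24 ± 0.07 (adjusted p = 0.0212).

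Slc16a1, the MCT1 gene, had 11.12, 11.17 and 11.15 in APC-KO no-Dox tumours, against 10.99, 10.82 and 10.89 in APC-WT no-Dox tumours (0.25 ± 0.05, limma, adjusted p = 0.00431). Gys1, glycogen synthase, had 7.95, 7.72 and 7.76 in APC-KO no-Dox tumours, against 7.52, 7.49 and 7.60 in APC-WT no-Dox tumours (0.27 ± 0.07, adjusted p = 0.0146). Both were higher in all 3 APC-KO tumours than in any APC-WT tumour. Slc16a3 was at 0.62 ± 0.15 and passed in the fit without a filter (adjusted p = 0.0111), with 1 of 3 APC-WT arrays under the floor.

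Among the genes lower in APC-KO tumours, the muscle enolase gene Eno3 differed most. Eno3 had 7.43, 7.47 and 7.43 in APC-KO no-Dox tumours, against 8.33, 8.29 and 7.96 in APC-WT no-Dox tumours. The APC-KO tumours were nearly equal and all lower, with a difference of -0.75 ± 0.09 (limma, adjusted p = 8.09e-05). Skeletal muscle markers, 3 of 6 tested, summed to 8.40 to 9.26 in APC-KO no-Dox tumours and 7.84 to 9.66 in APC-WT no-Dox tumours, and none of them passed. Pfkm, the muscle phosphofructokinase gene, had 7.92, 7.81 and 7.82 in APC-KO no-Dox tumours, against 8.26, 8.20 and 8.18 in APC-WT no-Dox tumours (-0.36 ± 0.08, adjusted p = 0.00374). The call of Pfkp depended on the probe set: the brightest differed by -0.28 ± 0.09 (adjusted p = 0.0375) and another by 0.35, which passed in the opposite direction over all probe sets (adjusted p = 0.0465).

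With Dox, the same contrast of genotypes had 9 of the 29 genes lower in APC-KO tumours and 1 higher, where 7.99% and 11.9% of all tested genes were. The share called was 34.5%, against 19.9% of all tested genes. The lower genes were Hk1, Pfkl, Pfkm, Pfkp, Aldoc, Tpi1, Pgk1, Eno3 and Pkm, and the higher one was Ldhb. The median was -0.10, against 0.01 over all tested genes.

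**Figure D4:**
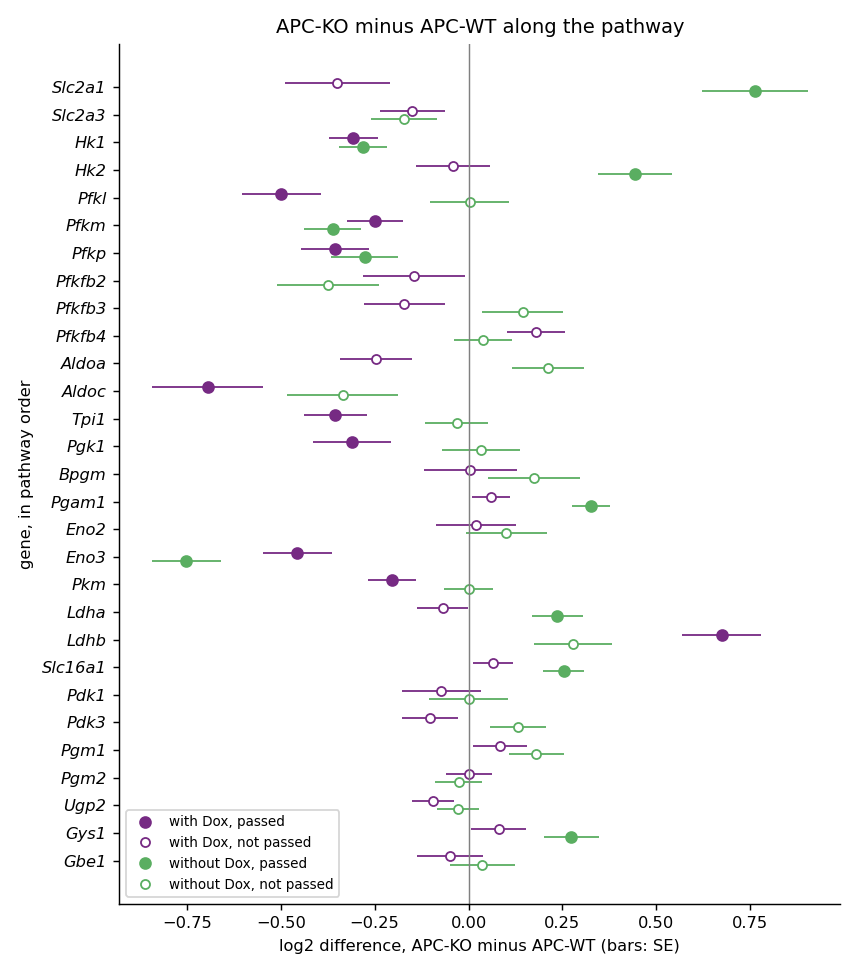
Log2 difference, APC-KO minus APC-WT, for each of the 29 tested genes in pathway order, with the standard error as a bar; purple with Dox and green without Dox, filled where the gene passed. Hk1, Pfkm, Pfkp and Eno3 are filled below 0 in both, while Slc2a1, Hk2, Pgam1, Ldha, Slc16a1 and Gys1 are filled above 0 without Dox only.

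Hk1, Pfkm, Pfkp and Eno3 thus passed as lower in APC-KO tumours in both comparisons, at -0.31 ± 0.07, -0.25 ± 0.08, -0.36 ± 0.09 and -0.46 ± 0.09 with Dox (limma, adjusted p = 0.00518, 0.0325, 0.0138 and 0.00377). For Pfkp this held for the brightest probe set only. Its other probe set above the floor was at -0.18 with Dox (limma over all probe sets, adjusted p = 0.318) and at 0.35 without. Ldhb had 8.83, 8.82 and 9.15 in APC-KO Dox tumours, against 8.22, 8.27 and 8.29 in APC-WT Dox tumours. All APC-KO values were higher, by 0.67 ± 0.11 (adjusted p = 0.000639). Without Dox, Ldhb had 8.72, 9.09 and 8.69 in APC-KO tumours, against 8.58, 8.48 and 8.60 in APC-WT tumours, and 0.28 ± 0.11 did not pass (adjusted p = 0.0685). Of its 4 probe sets the other three passed without Dox over all probe sets, between 0.29 and 0.43.

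Pfkl was lower in APC-KO Dox tumours at -0.50 ± 0.11 (limma, adjusted p = 0.00492), having been at 0.00 ± 0.11 without Dox. Of its 3 probe sets 2 passed with Dox, and the dimmest was at -0.152 (limma over all probe sets, adjusted p = 0.292). Aldoc, with 6.46, 5.77 and 6.24 in APC-KO Dox tumours, against 6.78, 6.87 and 6.91 in APC-WT Dox tumours, was lower at -0.70 ± 0.15 (adjusted p = 0.00518). Replicate 2 of the APC-KO Dox tumours was the lowest for Aldoc, Pfkl and Pgk1. Tpi1, Pgk1 and Pkm were lower at -0.36 ± 0.08, -0.31 ± 0.10 and -0.20 ± 0.06 (adjusted p = 0.0091, 0.0493 and 0.0402). Slc2a1 was at -0.35 ± 0.14 and did not pass (adjusted p = 0.101), nor did Hk2 at -0.04 ± 0.10 or Ldha at -0.07 ± 0.07. The count of 10 was 6 without APC-KO Dox replicate 2 or APC-WT Dox replicate 3, and the calls of Pfkp, Pgk1 and Pkm were among those lost in both fits.

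**Figure D5:**
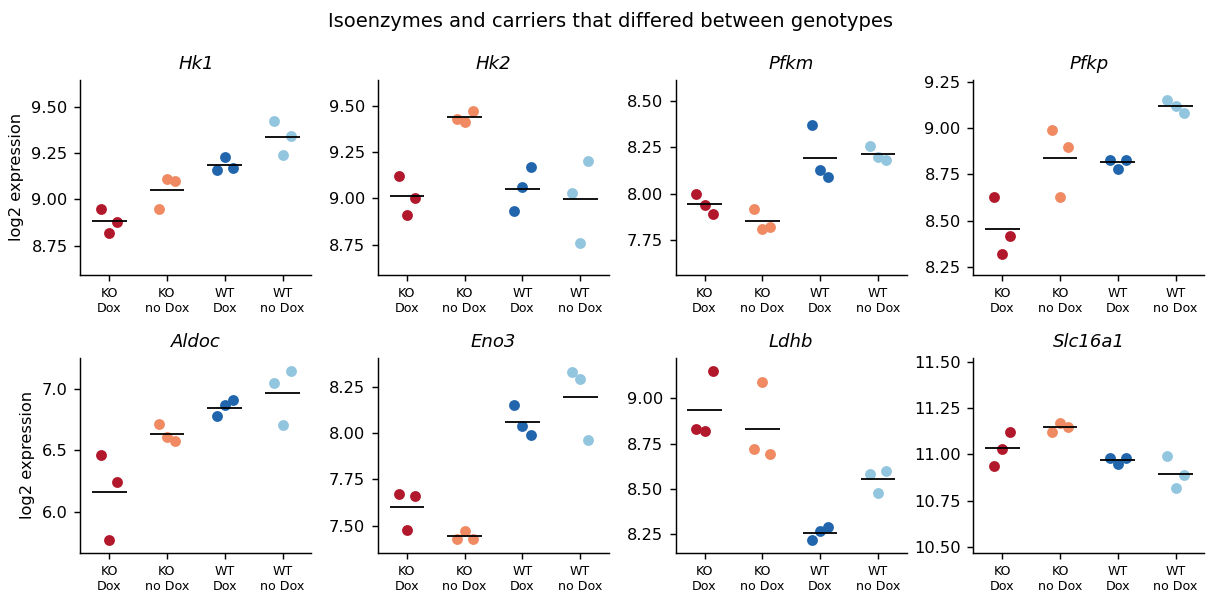
Log2 expression of 8 genes that passed between genotypes in at least 1 comparison, with 1 point per tumour and the group mean as a line; each panel has its own axis, which spans at least 1 log2 unit. Eno3 and Pfkm lie lower in both APC-KO groups than in both APC-WT groups, and Ldhb lies higher, while Hk2 and Slc16a1 are highest in the APC-KO no-Dox tumours.

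Control readings and cell type markers differed between genotypes too, and their part in these results was not tested. The Gapdh control signal, 3′ minus 5′, was -0.156, -0.116 and -0.111 in APC-KO Dox tumours, against -0.188, -0.158 and -0.163 in APC-WT Dox tumours. Without Dox it was -0.184, -0.154 and -0.154 in APC-KO tumours, against -0.092, -0.116 and -0.115 in APC-WT tumours. The groups were thus apart without Dox, with APC-KO lower. With Dox APC-KO was higher, but the nearest tumours were almost equal, at -0.156 and -0.158. The same reading of Actb was apart with Dox, at 0.193, 0.235 and 0.275 in APC-KO tumours, against 0.190, 0.180 and 0.167 in APC-WT tumours. The middle 18S control was apart without Dox, at 9.80, 10.16 and 9.89 in APC-KO tumours, against 9.59, 9.46 and 9.58 in APC-WT tumours. The 3′ one was apart as well. The 5′ one overlapped, at 9.508, 9.85 and 9.86 in APC-KO tumours, against 9.549, 9.448 and 9.735 in APC-WT tumours. The marker calls that follow stand beside 11.9% of all tested genes higher and 7.99% lower in APC-KO tumours with Dox. Without Dox these shares were 13.8% and 11.1%. T cell markers were lower in APC-KO tumours for 5 of 6 genes both with and without Dox, Cd3d, Cd3g, Cd8a and Cd8b1 in both. Their sums were 8.67 to 9.34 in APC-KO Dox tumours and 9.37 to 9.76 in APC-WT Dox tumours. Without Dox they were 9.22 to 9.30 in APC-KO tumours and 9.78 to 10.20 in APC-WT tumours. Neutrophil markers, 4 of 4 higher in APC-KO tumours without Dox, summed to 10.36 to 11.42 there and to 9.26 to 9.79 in APC-WT no-Dox tumours. With Dox 2 of the 4, S100a8 and S100a9, were lower in APC-KO tumours, and the sums overlapped, at 9.80 to 9.99 in APC-KO and 9.61 to 10.24 in APC-WT tumours. Macrophage markers summed to 14.86 to 14.88 in APC-KO Dox tumours and 14.93 to 15.03 in APC-WT Dox tumours without overlap, with 1 of 9 lower (Lyz2). Without Dox, Csf1r and Cd14 were higher in APC-KO tumours, and the sums were 14.93 to 14.98 in APC-KO and 14.83 to 14.96 in APC-WT tumours. Of the fibroblast markers 3 of 7 with Dox (Col1a1, Pdgfra and Col3a1) and 1 of 7 without Dox (Pdgfra) were higher in APC-KO tumours. Endothelial markers had 2 higher (Cdh5 and Kdr) and 1 lower (Vwf) of 5 with Dox and no call without. Fibroblast sums with Dox were 14.96 to 15.04 in APC-KO tumours and 14.82 to 14.87 in APC-WT tumours. Those of endothelium were 9.38 to 9.44 in APC-KO tumours and 9.12 to 9.28 in APC-WT tumours, and both were higher without overlap. Without Dox the sums of both lists overlapped. Krt8 was lower without Dox and Cdh1 higher with Dox in APC-KO tumours, of 3 epithelial markers tested. Epithelial sums with Dox were 8.79 to 9.58 in APC-KO tumours and 9.80 to 10.01 in APC-WT tumours. Without Dox they were 9.71 to 10.40 in APC-KO and 10.41 to 11.77 in APC-WT tumours, so they were lower in APC-KO tumours in both comparisons. Tubb3, the 1 neural marker tested, was lower in APC-KO tumours without Dox. Smooth muscle markers had no call in either comparison, and red cell precursor genes lay under the floor, 4 of 4 on the array.

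In the same 6 lists around glycolysis, 10 of 50 genes were higher and 4 lower in APC-KO tumours with Dox (20.0% and 8.0%, against 11.9% and 7.99% of all tested genes). Without Dox 8 were higher and 3 lower (16% and 6.0%, against 13.8% and 11.1%), so the share called, 22.0%, was not above the 24.9% of all tested genes. Pdha1, the catalytic subunit through which pyruvate dehydrogenase takes up pyruvate, was higher in APC-KO tumours by 0.66 ± 0.05 with Dox and by 0.62 ± 0.05 without (limma, adjusted p = 1.24e-06 and 2.05e-06). In all, 3 of the 9 genes of that list were higher with Dox and 4 without, and none was lower, among them the mitochondrial pyruvate carrier gene Mpc1 at 0.23 ± 0.06 and 0.35 ± 0.06. The others were the phosphatase gene Pdp1 with Dox (0.34 ± 0.09) and the subunit genes Pdhx (0.30 ± 0.09) and Pdhb (0.14 ± 0.05) without; Pdhb was at -0.08 with the mean of its probe sets. Of the pentose phosphate genes 3 of 8 were higher with Dox, and 1 was higher and 1 lower without. Pgd, which makes NADPH, was higher in both, at 0.30 ± 0.05 and 0.16 ± 0.05 (adjusted p = 0.00104 and 0.0263). H6pd and Pgls were higher with Dox (0.25 ± 0.07 and 0.15 ± 0.04), and Rpia, ribose 5-phosphate isomerase, was lower without (-0.28 ± 0.07).

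Of the 12 glycogen genes 3 were higher and 1 lower in APC-KO tumours with Dox, and 2 were higher without. The counts of this and the next lists stand beside 11.9% of all tested genes higher and 7.99% lower with Dox. Without Dox these shares were 13.8% and 11.1%. Phka2, a regulatory subunit of phosphorylase kinase, was at 0.63 ± 0.09 with Dox, and Pygl, the liver glycogen phosphorylase, at -0.58 ± 0.15 (limma, adjusted p = 0.000247 and 0.0179). The brain phosphorylase gene Pygb and Phkb, another subunit gene of phosphorylase kinase, were higher with Dox (0.34 ± 0.07 and 0.31 ± 0.09). Without Dox, Phka2 and the glycogenin gene Gyg were higher (0.41 ± 0.09 and 0.22 ± 0.06). Among 4 gluconeogenesis genes, Pcx, pyruvate carboxylase, was higher in both comparisons (0.50 ± 0.11 with Dox and 0.36 ± 0.11 without), and Pck2 was lower without Dox. Of the 8 other isoenzymes and partners 2 were lower with Dox, Hk3 at -0.52 ± 0.09 and Bsg, which carries MCT proteins to the membrane, at -0.25 ± 0.06 (adjusted p = 0.00158 and 0.00808), and none passed without. Of 9 regulators 1 was lower in each comparison, Vhl with Dox (-0.27 ± 0.06) and Txnip without (-0.40 ± 0.11).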

How the data were processed

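RNA of 12 tumours had been hybridised to Affymetrix arrays as biotinylated cRNA, per the labels' protocols. The deposited values are log2 expression values per probe set, normalized by the authors. The submitters' processing notes name MAS5; no version, scaling or transform is stated there, and the log2 unit was read from the values, which ran from 1.86 to 14.2. Of 45101 probe sets 64 were controls, 34945 had 1 gene symbol, 932 several and 9160 none, and 34741 were matched to RefSeq by Entrez identifier. Each of 18193 genes was represented by its brightest probe set and tested from a mean of 5.55, the median of non-control probe sets, upwards; 7123 genes lay below. A model of group means was fitted by limma 3.58.1 (R 4.3.3; lmFit, then eBayes on a mean-variance trend, 2-sided) to the 12 arrays together, with 5 contrasts and Benjamini-Hochberg adjustment over 11070 genes. The script was tested on simulated data. With 3 against 3 an exact test could not go under p = 0.05, so none is given. The number of arrays limits the precision. Correlations between arrays of a group were 0.995 to 0.998.

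The members, lists and tests were chosen with earlier results of these data known. All 34 members are named. From the further lists, genes that passed are named, up to 4 of a list and comparison with the largest differences; lists with no call are given by count, at times with the gene of smallest p. The lists were other isoenzymes of glycolysis, the pentose phosphate pathway, glycogen and nucleotide sugars, pyruvate dehydrogenase and pyruvate carriers, gluconeogenesis, regulators, HIF targets outside glycolysis, and markers of 10 cell types. Alternatives were quantile normalization, no filter, the mean of probe sets, eBayes without a trend, only the groups compared, array quality weights, the replicate number as a block, each array left out, and, added after the data were seen, a test of each probe set. Replicate numbers recur in the 4 groups, but deviations of tumours of the same number correlated between -0.22 and 0.17, so they were not taken as pairs.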

Additional observations from a re-analysis of the deposited data

How the results depend on the processing

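With 1 array left out, the number of glycolysis genes that passed ran from 1 to 11 for Dox in APC-KO tumours, from 0 to 0 for Dox in APC-WT tumours, from 6 to 11 between genotypes with Dox, from 8 to 11 between genotypes without Dox and from 0 to 4 for the interaction. For Dox in APC-KO tumours the count of 9 became 4 with eBayes without a trend and 5 with only the groups compared; the cause was not tested, though the second fit has fewer samples. Averaging the probe sets gave 6 and quantile normalization 7. Array quality weights gave 3 calls for Dox in APC-WT tumours in place of 0 and 1 for the interaction in place of 0, and the cause was not tested. With the replicate number as a block, the counts were 7, 0, 9, 10 and 0 in the same order of comparisons, and the numbers are not known to pair the tumours.

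When each gene is read by 1 value, no called difference of a glycolysis gene changed sign under the alternatives run. Tested by probe set, Pfkp without Dox did, since 1 of its probe sets was higher in APC-KO tumours by 0.35. Ugp2 did not pass by its brightest probe set, but 2 of its 5 passed as lower in APC-KO tumours in both genotype comparisons. These were at -0.345 and -0.382 with Dox and at -0.387 and -0.237 without. Pdk1 and Aldoa each had 1 probe set, not the brightest, that passed as lower with Dox, at -0.492 and -0.256 (limma over all probe sets, adjusted p = 0.0342 and 0.0328). Pdhb, higher in APC-KO tumours without Dox at 0.14, was at -0.082 with the mean of its probe sets, and the cause was not tested. Calls were lost in 60 of the 547 member values for Dox in APC-KO tumours, in 29 between genotypes with Dox and in 15 without, and gained in 10 of each. The arrays give no counts, so signal over background sets what is measurable; Slc16a3, whose mean was under the floor, was tested only without the filter.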
